A study of Mus musculus with 18 samples.

Results

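Srf and 9 genes of the contractile actin apparatus were followed in brown preadipocytes given FGF6. These 10 genes were taken by symbol from the 48023 genes of the count table, through the match of their Ensembl identifiers to GENCODE. The genes were Srf, the smooth muscle actins Acta2 and Actg2, the actin-binding proteins Tagln and Cnn1, the myosin light chain Myl9, the tropomyosins Tpm1 and Tpm2, and the anchoring and crosslinking proteins Vcl and Flna. All 10 passed the filter on low counts, together with 15071 genes in all. Acta2 fell to 0.127 of its vehicle level by 24 h and Myl9 to 0.0923. At that time 8 of the 10 genes were lower, where 37.9% of all genes tested were lower and 35.9% higher. Srf and Flna were the exceptions, and both were higher with FGF6 at 24 h.

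The cells were an immortalized line of mouse brown preadipocytes, the undifferentiated precursors of brown fat cells. The line had been made with the SV40 T antigen, and all groups shared this transformation and growth medium with high glucose and serum. It is 1 line, so the libraries do not sample different animals. Cells received vehicle or recombinant FGF6, a paracrine fibroblast growth factor, for 4, 8, or 24 h, which gave the groups Veh 4 h, Veh 8 h, Veh 24 h, FGF6 4 h, FGF6 8 h, and FGF6 24 h with 3 libraries each. The labels number the libraries but do not say that they came from separate cultures, so p-values measure the spread between these libraries, which may be technical. The total per library ranged from 24327816 to 33471980 counts. No pair of libraries within a group was alike within sampling noise, with a chi-square of at least 2.44 per degree of freedom. Veh 24 h replicate 3 stood apart from its group. Its chi-square was 38 and 41.2 per degree of freedom against the other libraries of the group, while all remaining pairs lay between 2.44 and 7.62. The 5 genes CT010467.1, Lars2, Mir6236, Gm26917, and mt-Rnr2, named after their values were seen, made up 78.5% and 83.7% of this gap, and none belongs to the lists used here. Calls of named genes that change without this library are given beside the results.

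SRF, the serum response factor, is a transcription factor that binds an element known as the CArG box. It works with either of 2 families of partners. The ETS factors of the ternary complex group (ELK1, ELK3, and ELK4) respond to MAP kinase signaling and serve immediate early genes, whereas myocardin and its relatives MRTFA and MRTFB respond to free actin monomers or mark smooth muscle and serve contractile genes. Contractile actin genes are not confined to muscle, and fibroblast-like precursors such as preadipocytes express several of them in their stress fibers and adhesions.

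The CArG boxes in the promoters are given first, since several of these genes share them in sequence. The genes were chosen as Srf and genes of the contractile actin apparatus, a class that SRF and its partners serve. A higher share of boxes than in all windows was thus likely beforehand and is not independent support. Windows of 300 bases, from 250 before to 50 after the transcription start, were taken from RefSeq on GRCm38.p6. The search was for the CArG box, a 10-base element with paired C at one end, paired G at the other, and only A or T between. It reads as a CArG box on both strands, and no overlap between boxes was found in the windows shown. Among all 32851 windows of the table, 535 (1.63%) held 1 or more. Of the 10 genes, 8 had a window, all but Actg2 and Tagln, and 3 of these 8 held a box: Srf with 2, Myl9 with 1, and Vcl with 1. With at most 1 letter off the element, 6 of the 8 had a match (also Acta2, Tpm1, and Flna), against 21.1% of all windows, and Cnn1 and Tpm2 had none. The RefSeq start lay 3286 bases inside the GENCODE gene for Flna, whose window held 0 bases before both starts. For Acta2, Tpm2, and Tpm1 it lay 217, 211, and 193 bases inside. A match is a description of the letters in the window, and a missing match says nothing of sites outside it.

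The 3 upstream sequences that held a box are shown 5′ to 3′ with the box in capitals, and they end before the first transcribed base that either annotation gives. The Srf sequence lies at chr17:46556176-46556412 on the minus strand, and its boxes start 82 and 62 bases before the RefSeq start. The Myl9 sequence lies at chr2:156775214-156775419 on the plus strand, with the box 161 bases before the start, and the Vcl sequence at chr14:20929148-20929397 on the plus strand, with the box 227 bases before it.
Srf: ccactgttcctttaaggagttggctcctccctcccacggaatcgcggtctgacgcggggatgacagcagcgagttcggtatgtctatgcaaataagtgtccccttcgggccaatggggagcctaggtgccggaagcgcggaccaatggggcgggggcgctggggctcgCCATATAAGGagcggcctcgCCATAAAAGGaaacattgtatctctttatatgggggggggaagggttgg
Myl9: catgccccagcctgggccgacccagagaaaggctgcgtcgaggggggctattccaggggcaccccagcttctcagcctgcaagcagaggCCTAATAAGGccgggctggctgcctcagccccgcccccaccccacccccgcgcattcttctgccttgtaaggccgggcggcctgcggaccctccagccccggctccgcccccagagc
Vcl: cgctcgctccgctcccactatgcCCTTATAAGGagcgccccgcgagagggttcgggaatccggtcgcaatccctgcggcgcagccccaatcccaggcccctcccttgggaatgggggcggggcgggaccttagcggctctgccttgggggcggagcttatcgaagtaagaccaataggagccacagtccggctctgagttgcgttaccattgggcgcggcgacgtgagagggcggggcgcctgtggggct

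RNA was sequenced in the study to look for pathways by which FGFs act on Ucp1, the uncoupling protein of brown fat, and each time point was compared with vehicle at the same time. Expression is given in CPM, in which each count is divided by the TMM-scaled total of its library. Changes are log2 fold changes from edgeR's quasi-likelihood model, with p-values adjusted by the Benjamini-Hochberg method over all genes tested, and a gene was called at an adjusted p under 0.05. At 4 h, 6 of the 10 genes were lower and 0 higher, where 34.2% of all genes tested were lower and 28.6% higher. At 8 h, 8 were lower and 0 higher, against 38.4% and 32.4%. At 24 h, 8 were lower and 2 higher, against 37.9% and 35.9%. The median log2 fold change of the 10 genes was -0.251 at 4 h, -0.717 at 8 h, and -1.37 at 24 h, and that of all genes tested was -0.048, -0.05, and -0.022. Most of the genes tested passed in one direction or the other, so the sizes of the changes are given beside the calls. In such bulk RNA, fewer cells of a kind and less RNA per cell cannot be told apart. At least a 2-fold change was seen for 1 of the 10 genes at 4 h (11.3% of all genes), for 4 at 8 h (18.3%), and for 5 at 24 h (22.8%). Library size alone as the scale, in place of TMM, moved the median of all genes at 4 h by -0.101 and the calls from 4308 higher and 5152 lower to 3242 and 6495. On that scale 9 of the 10 genes were lower at 4 h, with Tagln, Cnn1, and Flna added, and 9 at 8 h, with Flna added.

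Without Veh 24 h replicate 3, the library that stood apart, 8 genes were again lower and 2 higher at 24 h. The log2 fold changes at 24 h were then -2.93 for Acta2, -2.63 for Actg2, -3.35 for Myl9, -1.76 for Tagln, -2.15 for Cnn1, -0.80 for Tpm1, -0.73 for Tpm2, -0.87 for Vcl, 0.30 for Srf, and 0.32 for Flna, each with a call in the same direction as with all libraries. At 4 h, 6 genes were lower and 1 higher without it, and at 8 h, 8 were lower and 0 higher. The 1 higher was Tpm2 at 4 h, with 0.08 (adjusted p = 0.0318).

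**Figure D1:**
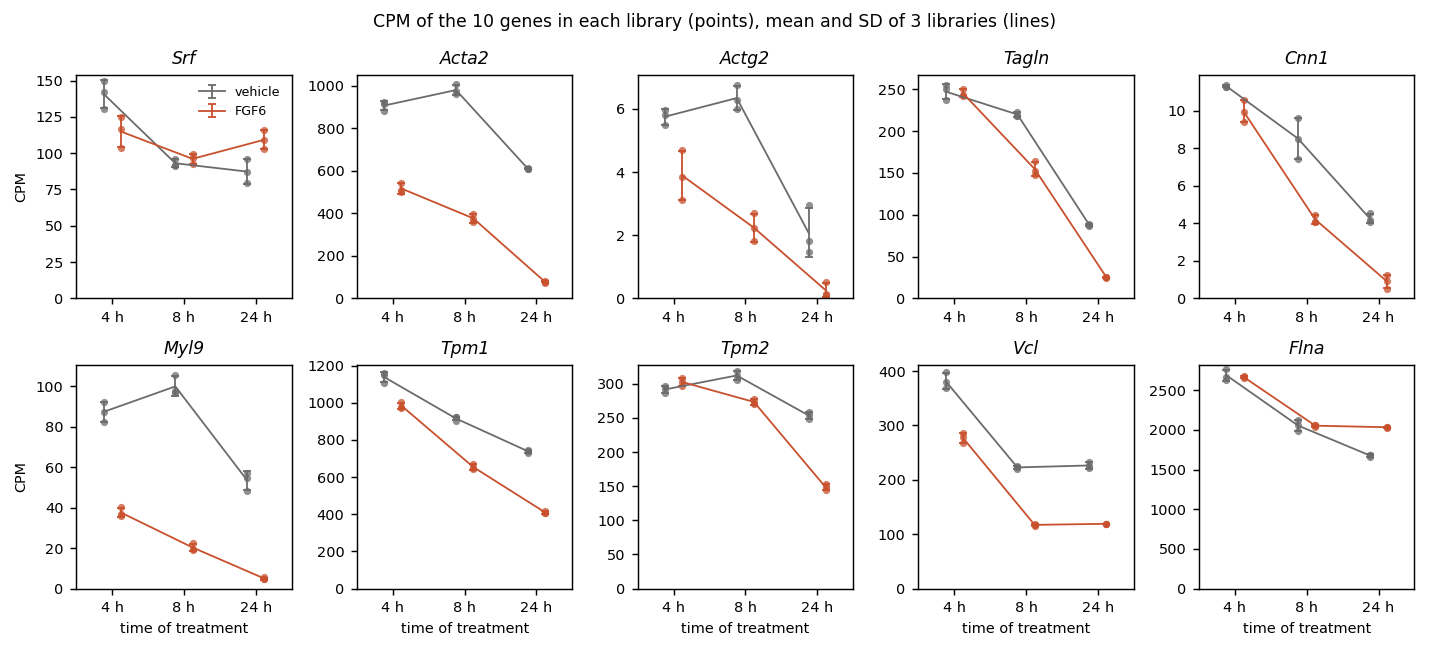
CPM of the 10 genes in each library by time of treatment in hours, with vehicle in gray and FGF6 in orange. Points are libraries, lines join the means, and bars are the SD of 3 libraries. Acta2 and Myl9 are separated from vehicle at all 3 times, while the Srf lines cross between 4 h and 24 h.

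Srf, the transcription factor itself (ENSMUSG00000015605, chr17:46548329-46556175, minus strand, GRCm38), moved in opposite directions over the day. In vehicle cells, Srf was at 130.6, 149.9 and 142.1 CPM at 4 h, 92.1, 96 and 91 CPM at 8 h, and 95.9, 86.9 and 79.2 CPM at 24 h. With FGF6, it was at 103.5, 124.9 and 116.4 CPM at 4 h, 99.1, 96.9 and 92.2 CPM at 8 h, and 102.7, 109.2 and 115.9 CPM at 24 h. FGF6 libraries were all lower than vehicle at 4 h, mixed with vehicle at 8 h, and all higher at 24 h. The log2 fold change was -0.29 (SE 0.0621, adjusted p = 0.000221) at 4 h, 0.05 (SE 0.0637, adjusted p = 0.519) at 8 h, and 0.32 (SE 0.0639, adjusted p = 7.48e-05) at 24 h. The 95% interval at 8 h ran from -0.09 to 0.19. The rise of the effect was itself past the test from 4 h to 8 h, with a difference of 0.34 (SE 0.089, adjusted p = 0.00476). Over these hours, Srf fell by 0.60 on the log2 scale in vehicle cells, and the FGF6 mean went from 115 ± 10.8 CPM to 96.1 ± 3.54 CPM (SD, n = 3).

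Acta2 encodes smooth muscle alpha-actin, the actin of contractile stress fibers (ENSMUSG00000035783, chr19:34241090-34255590, minus strand). In vehicle cells, its level was 882.5, 914.7 and 923.2 CPM at 4 h, 973.5, 1006 and 959.3 CPM at 8 h, and 607.9, 607.5 and 614.3 CPM at 24 h. With FGF6, the libraries stood at 543.3, 498.2 and 507.7 CPM at 4 h, 398.8, 372.4 and 357.8 CPM at 8 h, and 74.5, 80 and 77.7 CPM at 24 h. The groups did not overlap at any time, and the ratio widened with time. Acta2 was 1.76-fold lower at 4 h, 2.6-fold lower at 8 h, and 7.88-fold lower at 24 h. The last of these was -2.98 (SE 0.0413, adjusted p = 6.44e-27) on the log2 scale. Only 7 of the 2146 stretches of 50 bases in Acta2 transcripts (0.326%) occur in other actin transcripts, and 0 of 1592 in Actg2. Acta1 and Actc1 are close relatives, and how the counting treated reads that match several genes is not stated.

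Actg2 encodes the gamma-actin of enteric smooth muscle (ENSMUSG00000059430, chr6:83512905-83536265, minus strand) and had few counts. Vehicle libraries had 5.48, 5.81 and 5.97 CPM at 4 h, 6.75, 6.29 and 5.99 CPM at 8 h, and 1.82, 1.48 and 2.94 CPM at 24 h. FGF6 libraries had 4.7, 3.12 and 3.86 CPM at 4 h, 2.21, 2.69 and 1.81 CPM at 8 h, and 0.146, 0.107 and 0.514 CPM at 24 h, and in the last group these stood for 4, 3, and 14 counts. The libraries of the arms were apart at each time, with all FGF6 libraries lower. The log2 fold change was -0.57 (SE 0.188, adjusted p = 0.0106) at 4 h, -1.49 (SE 0.202, adjusted p = 3.62e-07) at 8 h, and -2.97 (SE 0.372, adjusted p = 9.01e-08) at 24 h. At 4 h the call rested on 1 library, since without FGF6 4 h replicate 2 it was -0.40 (adjusted p = 0.109). At 24 h the vehicle libraries together held 171 counts and the FGF6 libraries 21, a scaled ratio of 7.87 with a 95% counting interval from 4.99 to 13.

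Myl9 encodes the regulatory light chain of smooth muscle and non-muscle myosin II, whose phosphorylation drives contraction (ENSMUSG00000067818, chr2:156775420-156781658, plus strand). Its decrease was the largest among the 10 genes at 4 h and 8 h, and at 24 h the 95% interval of Actg2, from -3.78 to -2.16, took in the value of Myl9. In vehicle cells, Myl9 had 82.1, 87.4 and 92.2 CPM at 4 h, 97.7, 105.5 and 96.4 CPM at 8 h, and 48.3, 54.7 and 57.3 CPM at 24 h. In FGF6 cells, it had 40.2, 35.8 and 36.7 CPM at 4 h, 22.4, 19 and 19.5 CPM at 8 h, and 4.82, 4.5 and 5.47 CPM at 24 h. All FGF6 libraries were lower than all vehicle libraries of their time, and the ratio widened. Myl9 was 2.32-fold lower at 4 h, 4.91-fold at 8 h, and 10.8-fold at 24 h, with log2 fold changes of -1.22 (SE 0.0649, adjusted p = 1.69e-14), -2.30 (SE 0.0691, adjusted p = 7.83e-20), and -3.44 (SE 0.0891, adjusted p = 2.1e-21). Myl9 is one of the 3 genes with a CArG box in the window shown, as are Vcl and Srf, whose log2 fold changes at 24 h were -0.93 and 0.32.

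Tpm1 and Tpm2 encode tropomyosins, which lie along the actin filament and regulate the access of myosin. For Tpm1 (ENSMUSG00000032366, chr9:67022590-67049406, minus strand), vehicle libraries had 1106, 1148 and 1160 CPM at 4 h, 920.7, 903.3 and 921 CPM at 8 h, and 738.8, 731.3 and 747.2 CPM at 24 h. With FGF6, Tpm1 was at 1003, 969.9 and 978.8 CPM at 4 h, 671.9, 646.8 and 643.3 CPM at 8 h, and 405.3, 418.3 and 406.3 CPM at 24 h. The arms were apart at each time, and the log2 fold change went from -0.21 (SE 0.0269, adjusted p = 2.04e-07) at 4 h to -0.48 (SE 0.027, adjusted p = 2.25e-14) at 8 h and -0.85 (SE 0.0272, adjusted p = 1.67e-19) at 24 h. Tpm2 (ENSMUSG00000028464, chr4:43514711-43523765, minus strand) had 286.2, 296.5 and 292.2 CPM at 4 h, 319.1, 311.4 and 305.9 CPM at 8 h, and 248.1, 258.4 and 254.6 CPM at 24 h in vehicle cells. With FGF6, Tpm2 had 307.8, 296.7 and 303.2 CPM at 4 h, 272.5, 277.6 and 269.9 CPM at 8 h, and 143.7, 152.5 and 148.3 CPM at 24 h. FGF6 libraries were all higher by a narrow margin at 4 h and all lower at 8 h and 24 h. Tpm2 was not called at 4 h, where its log2 fold change was 0.05 (SE 0.0309, adjusted p = 0.142), with a 95% interval from -0.01 to 0.12, and turned to -0.048 with library size alone. Tpm2 was lower at 8 h, with -0.19 (SE 0.0309, adjusted p = 5.39e-06), and at 24 h, with -0.78 (SE 0.0316, adjusted p = 2.47e-17). Both tropomyosins thus changed less than 2-fold at 24 h, with decreases of 1.8-fold and 1.71-fold.

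Tagln and Cnn1 encode transgelin and calponin, actin-binding proteins used as markers of smooth muscle differentiation. Tagln (ENSMUSG00000032085, chr9:45929619-45936058, minus strand) had 237.6, 249.8 and 254.6 CPM at 4 h, 218.6, 223.3 and 217.8 CPM at 8 h, and 87.7, 87 and 89.5 CPM at 24 h in vehicle cells. With FGF6, Tagln had 250.8, 243.4 and 242.2 CPM at 4 h, 164.2, 147.9 and 152.2 CPM at 8 h, and 25.7, 25.2 and 24.6 CPM at 24 h. The arms overlapped at 4 h and were apart at 8 h and 24 h. The log2 fold change was -0.01 (SE 0.0353, adjusted p = 0.813) at 4 h, with a 95% interval from -0.09 to 0.07 and a value of 0.013 with DESeq2, then -0.51 (SE 0.0358, adjusted p = 2.81e-12) at 8 h and -1.81 (SE 0.042, adjusted p = 2.25e-22) at 24 h. Of the 1988 exonic bases of Tagln, 1349 lie under exons of Gm48529 and Pcsk7 on the other strand, and reads of the genes cannot be told apart there because the strand setting of the counting is not stated.

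Cnn1 (ENSMUSG00000001349, chr9:22099216-22109630, plus strand) was a gene of low level. Vehicle libraries had 11.4, 11.2 and 11.3 CPM at 4 h, 9.6, 7.44 and 8.49 CPM at 8 h, and 4.17, 4.04 and 4.54 CPM at 24 h. FGF6 libraries had 9.95, 10.6 and 9.38 CPM at 4 h, 4.46, 4.07 and 4.07 CPM at 8 h, and 0.511, 0.929 and 1.25 CPM at 24 h, the last for 14, 26, and 34 counts. All FGF6 libraries were lower at each time, but at 4 h the log2 fold change of -0.18 (SE 0.105, adjusted p = 0.142) was not called (95% interval from -0.41 to 0.05), and with library size alone it was (-0.281, adjusted p = 0.0215). At 8 h it was -1.02 (SE 0.122, adjusted p = 5.02e-08) and at 24 h -2.23 (SE 0.184, adjusted p = 4.41e-11). The vehicle libraries at 24 h held 361 counts in all and the FGF6 libraries 74, a scaled ratio of 4.72 with a 95% counting interval from 3.66 to 6.14. Counting intervals here cover counting error only.

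Vcl encodes vinculin, which links actin filaments to integrin and cadherin adhesions (ENSMUSG00000021823, chr14:20929398-21033676, plus strand). In vehicle cells, Vcl was at 368.1, 397.6 and 379.2 CPM at 4 h, 223.4, 225.3 and 219.7 CPM at 8 h, and 221.4, 225.1 and 232.7 CPM at 24 h. In FGF6 cells, it was at 286.1, 278.6 and 267.7 CPM at 4 h, 117.3, 115.4 and 118.7 CPM at 8 h, and 118.9, 118.9 and 119.5 CPM at 24 h. The FGF6 libraries were all lower at each time, and from 8 h on both arms held their level. The log2 fold change was -0.46 (SE 0.0327, adjusted p = 5.23e-12) at 4 h, -0.93 (SE 0.0338, adjusted p = 3.91e-18) at 8 h, and -0.93 (SE 0.0338, adjusted p = 2.6e-18) at 24 h. The change of the effect from 8 h to 24 h was 0.001 (SE 0.0475, adjusted p = 0.986), and Vcl was the only one of the 10 genes not called in that contrast. Of its 8191 exonic bases, 2090 lie under exons of Ap3m1 on the other strand.

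Flna encodes filamin A, which crosslinks actin filaments into networks (ENSMUSG00000031328, chrX:74223461-74249820, minus strand). Vehicle libraries had 2667, 2765 and 2632 CPM at 4 h, 2059, 2118 and 1984 CPM at 8 h, and 1659, 1684 and 1688 CPM at 24 h. FGF6 libraries had 2677, 2665 and 2658 CPM at 4 h, 2061, 2037 and 2058 CPM at 8 h, and 2039, 2035 and 2024 CPM at 24 h. The arms overlapped at 4 h and 8 h, and at 24 h all FGF6 libraries were higher. The log2 fold change was -0.01 (SE 0.0232, adjusted p = 0.692) at 4 h and -0.001 (SE 0.0232, adjusted p = 0.965) at 8 h, with 95% intervals from -0.06 to 0.04 and from -0.05 to 0.05. At these times it was 0.012 and 0.036 with DESeq2 and -0.113 and -0.065 with library size alone. At 24 h it was 0.28 (SE 0.0233, adjusted p = 6.02e-11), a 1.21-fold increase. The FGF6 mean differed little between 8 h (2052 ± 13.3 CPM) and 24 h (2032 ± 7.77 CPM), while the vehicle mean went from 2054 ± 67.1 to 1677 ± 15.8 CPM (SD, n = 3).

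**Figure D2:**
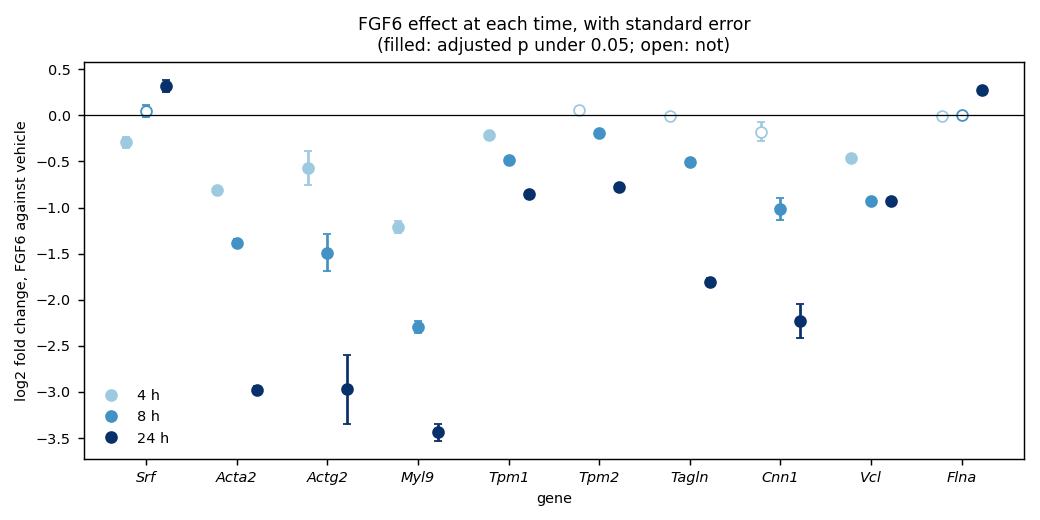
Log2 fold change of FGF6 against vehicle for each of the 10 genes at 4, 8, and 24 h, with the standard error from edgeR. Filled points had an adjusted p under 0.05. Myl9, Acta2, and Actg2 reach -3.44, -2.98, and -2.97 at 24 h, and Srf and Flna lie above 0 at that time.

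By the time at which the decrease was first called, the genes fell into groups. Acta2, Actg2, Myl9, Tpm1, and Vcl were lower from 4 h on, Tagln, Cnn1, and Tpm2 from 8 h on, Srf at 4 h alone, and Flna at no time. These groups rest on the call, which depends on depth as well as on the size of the change. At 4 h, Cnn1 (-0.18, SE 0.105) and Tpm1 (-0.21, SE 0.0269) had decreases of like size, and only that of Tpm1 was called. The call of Actg2 at 4 h rested on 1 library. The effect of FGF6 differed between 8 h and 4 h for 9 of the 10 genes, where 30.6% of all genes differed, and Flna was the one that did not. Between 24 h and 8 h it differed for 9 of 10, against 45.1% of all genes. Without Veh 24 h replicate 3 it differed for 8, since the difference for Srf went from 0.27 (adjusted p = 0.0153) to 0.21 (adjusted p = 0.0558). Between 24 h and 4 h it differed for 10 of 10, against 53.5%. For Acta2, Actg2, Tagln, Cnn1, Myl9, Tpm1, and Tpm2, the effect became more negative in both steps. These contrasts share libraries, so the values of one are not independent of those of another.

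The contractile genes also moved in vehicle cells, which were collected at the same times. From 4 h to 8 h, 9 of the 10 genes changed, where 43.0% of all genes did. Vcl fell by 0.78, Srf by 0.60, Cnn1 by 0.41, Flna by 0.39, Tpm1 by 0.32, and Tagln by 0.17 on the log2 scale, and Acta2, Myl9, and Tpm2 rose by 0.11, 0.20, and 0.10. From 8 h to 24 h, 8 genes fell and 0 rose, where 49.2% of all genes changed, with 3575 of 15071 lower and 3839 higher. The log2 changes were -1.65 for Actg2, -1.32 for Tagln, -1.01 for Cnn1, -0.90 for Myl9, and -0.68 for Acta2. Srf, with -0.09 (SE 0.0641, adjusted p = 0.256), and Vcl, with 0.02 (SE 0.033, adjusted p = 0.594), were not called. Without Veh 24 h replicate 3, the same 8 genes were called, and Actg2 stood at -1.95. Tagln, Cnn1, and Actg2 therefore fell by more than 2-fold between 8 h and 24 h without FGF6, and each was lower still with it.

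Levels of different genes were compared per kilobase of exon, with the merged exons of all annotated transcripts as the length. Where the transcripts present are shorter than that, as may hold for Tpm1 with 6485 merged bases, the level is understated. The order of genes therefore depends on the length used. In vehicle cells at 4 h, Acta2 led with 413 ± 9.76 CPM per kb (SD, n = 3), followed by Flna with 286 ± 7.36, Tpm1 with 175 ± 4.31, Tagln with 124 ± 4.41, Tpm2 with 100.3 ± 1.77, and Myl9 with 75.1 ± 4.37. Srf (48.7 ± 3.37) and Vcl (46.6 ± 1.82) overlapped in their libraries, and Cnn1 (4.13 ± 0.0252) and Actg2 (3.7 ± 0.162) were far below. With FGF6 at 24 h, Flna led with 216 ± 0.827 CPM per kb, ahead of Tpm1 with 63.2 ± 1.11 and Tpm2 with 50.9 ± 1.52. Acta2 was then at 35.3 ± 1.26, beside Srf at 37.8 ± 2.28, and the libraries of these neighbors overlapped. Vcl (14.5 ± 0.0453), Tagln (12.7 ± 0.274), and Myl9 (4.24 ± 0.425) followed without overlap. Cnn1 (0.327 ± 0.135) and Actg2 (0.164 ± 0.144) were last and overlapped. Myl9 thus stood above Srf in vehicle cells at 4 h, 8 h, and 24 h and below it in FGF6 cells at each time.

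**Figure D3:**
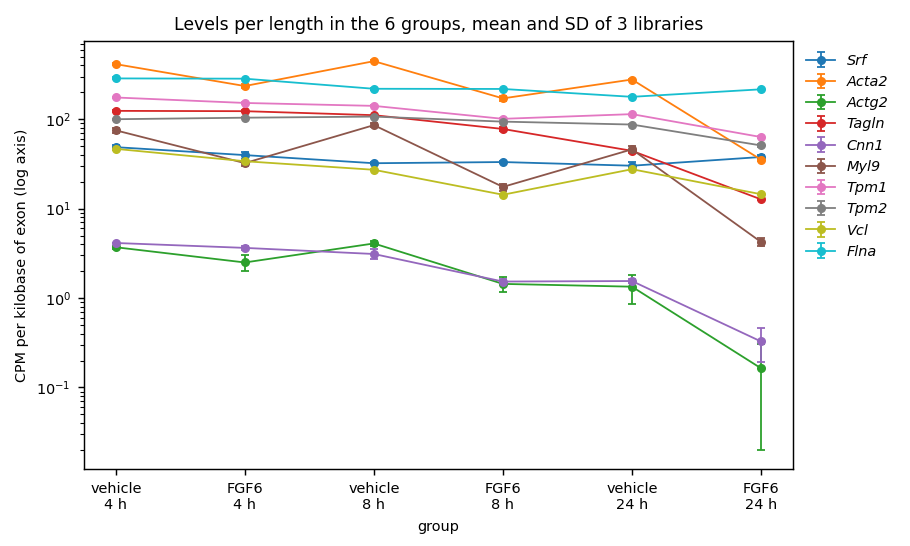
CPM per kilobase of exon on a log axis in the 6 groups, as the mean and SD of 3 libraries for each of the 10 genes. Acta2 leads in the vehicle groups and lies next to Srf in the FGF6 group at 24 h, at 35.3 and 37.8 CPM per kb.

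Of the 6 SRF partners, 3 were higher and 0 lower at 4 h, and 3 were higher and 2 lower at both 8 h and 24 h. Among all genes tested, 28.6%, 32.4%, and 35.9% were higher and 34.2%, 38.4%, and 37.9% lower at the 3 times. The median log2 fold change of these 6 was 0.123, 0.092, and 0.114, beside -0.048, -0.05, and -0.022 for all genes. Elk3, an ETS partner that can repress until it is phosphorylated, rose at each time, from 114.8 ± 2.01 CPM with vehicle to 287.9 ± 5.77 CPM with FGF6 at 24 h (SD, n = 3), and its log2 fold change was 1.02 (SE 0.0331, adjusted p = 7.25e-19) at 4 h, 1.05 at 8 h, and 1.33 (SE 0.0334, adjusted p = 1.12e-21) at 24 h. Elk4, another ETS partner, rose by 0.36, 0.58, and 0.54, with a largest adjusted p of 1.65e-06. Elk1, the third, was called lower at 8 h and 24 h with -0.21 and -0.19, and was at 0.02 at 4 h.

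The actin-sensing partners went different ways. Mrtfa was higher at 4 h and 8 h by 0.23 and 0.31 and stood at 0.02 at 24 h (adjusted p = 0.765). Mrtfb was at -0.05 at 4 h, was lower at 8 h with -0.13 (-0.08, adjusted p = 0.0809, without Veh 24 h replicate 3), and was higher at 24 h by 0.21. Myocd, the smooth muscle partner, had few counts, with 1.31 ± 0.249 CPM in vehicle cells and 0.52 ± 0.056 CPM with FGF6 at 24 h, when its log2 fold change was -1.32 (SE 0.319, adjusted p = 0.000648). At 4 h and 8 h it was not called (-0.50 and -0.60). The means at 8 h were 0.32 ± 0.188 CPM with vehicle and 0.21 ± 0.073 CPM with FGF6. Both arms thus had a higher mean at 24 h than at 8 h.

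The 8 immediate early genes that carry SRF and ELK sites were the list that moved opposite to the contractile genes. All 8 (Fos, Fosb, Egr1, Egr2, Egr3, Ier2, Junb, and Mcl1) were higher at each of the 3 times, with a median log2 fold change of 1.9 at 4 h, 2.196 at 8 h, and 1.17 at 24 h. The shares of all genes tested that were higher were 28.6%, 32.4%, and 35.9%. The median log2 fold changes of all genes tested were -0.048, -0.05, and -0.022. Egr2, a zinc finger transcription factor, went from 9.88 ± 1.98 CPM to 143 ± 1.52 CPM at 4 h, a log2 fold change of 3.85 (SE 0.0707, adjusted p = 5.99e-24), and stood at 3.89 at 8 h and 0.99 at 24 h (adjusted p = 8.99e-09). Egr3, of the same family, had log2 fold changes of 3.03, 4.13, and 3.55 with a largest adjusted p of 1.43e-17. Fosb, an AP-1 subunit, was higher by 2.75 at 4 h and 2.14 at 24 h. Egr1 was at 115.8 ± 5.07 CPM with FGF6 at 8 h and 19.1 ± 1.09 CPM with vehicle, a log2 fold change of 2.60. Ier2, an early response gene, was higher by 1.57 at 24 h. Srf, which belongs to the same class of serum-responsive genes, was lower at 4 h in these cells.

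Among 35 other actin cytoskeleton and smooth muscle genes, decreases outnumbered increases. At 4 h 10 were higher and 20 lower, at 8 h 11 and 21, and at 24 h 11 and 19, with median log2 fold changes of -0.19, -0.3, and -0.304. The shares of all genes tested were 28.6% higher and 34.2% lower at 4 h, 32.4% and 38.4% at 8 h, and 35.9% and 37.9% at 24 h. Without Veh 24 h replicate 3, 12 of the 35 were higher and 18 lower at 24 h. Lmod1, leiomodin, which nucleates actin filaments in smooth muscle, fell from 10.4 ± 1.21 to 1.05 ± 0.153 CPM at 4 h, which was -3.33 (SE 0.182, adjusted p = 2.75e-14) in log2 units, and stood at -4.06 at 8 h and -4.37 at 24 h. Synpo2, an actin-bundling protein of the Z-disc, fell from 5.51 ± 0.725 to 0.65 ± 0.21 CPM at 4 h (-3.07) and was -2.96 at 8 h. These decreases at 4 h were larger than that of Myl9.

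The striated muscle actins, low in these cells, went down as well. Actc1, the cardiac actin, had 46, 94, and 60 counts in the vehicle libraries at 24 h and 1, 0, and 2 in the FGF6 libraries, a scaled ratio of 64.5 with a 95% counting interval from 21.7 to 315. At 4 h and 8 h its log2 fold change was -1.16 and -1.97. Acta1, the skeletal actin, had 204 counts in all with vehicle and 15 with FGF6 at 24 h, a scaled ratio of 13.1 with a 95% counting interval from 7.79 to 23.9, and the log2 fold change was -3.69 (SE 0.384, adjusted p = 3.55e-09).

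Several other genes of the actin cytoskeleton and smooth muscle list, none of them an actin, went up. Ccn2, a matricellular protein and a target of both SRF and YAP, was higher by 0.71 at 4 h and 1.43 at 8 h. Zyx, zyxin, a protein of focal adhesions and stress fibers, was higher by 0.61 and 1.05 at those times. Smtn, smoothelin, was higher at all 3 times by 0.53, 0.75, and 0.96, from 46.8 ± 2.11 to 91.3 ± 1.47 CPM at 24 h. At 24 h Tpm3, another tropomyosin gene, and Tagln2, a relative of Tagln, were higher by 0.66 (adjusted p = 4.02e-16) and 0.65 (adjusted p = 1.65e-16), while Tpm1, Tpm2, and Tagln were lower.

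**Figure D4:**
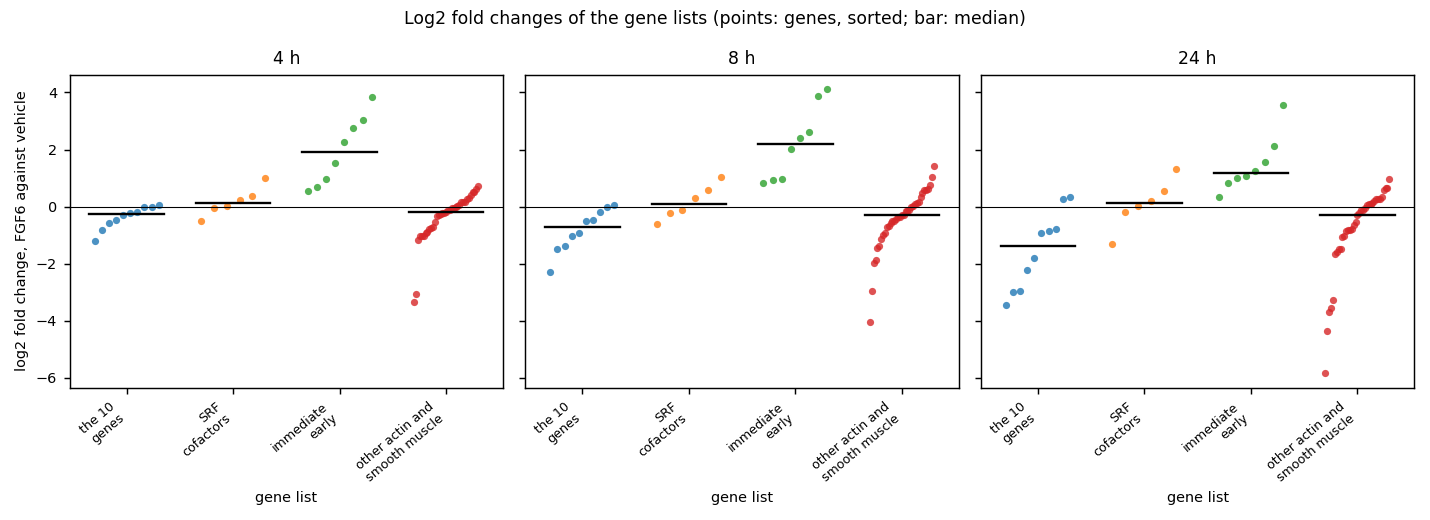
Log2 fold changes of FGF6 against vehicle at 4, 8, and 24 h for the 10 genes and 3 lists of related genes. Each point is a gene, sorted within its list, and the black bar is the list's median. The 8 immediate early genes lie above 0 at each time, and the lowest point at 24 h is Actc1, a fitted value that rests on 3 counts with FGF6.

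Genes whose pattern was most like that of a chosen gene were sought over the 6 group means of log2 CPM, each centered on the gene's own mean. The search covered 9425 genes with a mean of at least 10 CPM and left out the 10 genes themselves. The measure was the root mean square difference. Nearest to Srf were Tmem50b (0.109), Sipa1l1 (0.111), and Slc48a1 (0.117). Nearest to Acta2 were Slit3 (0.162), Siglecg (0.168), and Sned1 (0.202), and nearest to Cnn1 were Nlrc5 (0.199), Creb3l1 (0.228), and Lrrc32 (0.26). None of the 9 belongs to the other actin lists used here, but low genes of those lists, such as Acta1 and Actc1, were not searched.

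The labelled cell type was checked against markers. Of 9 stromal preadipocyte markers, 7 passed the filter, with Dpp4 and Zic1 at or near 0, and their summed level was 1330 to 1390 CPM with vehicle and 399 to 415 CPM with FGF6 at 24 h, where 2 (Cd34 and Prdm16) rose and 5 (Pdgfra, Pdgfrb, Ebf2, Ly6a, and Thy1) fell. Of the 5 mature adipocyte markers, Fabp4 made up most of the sum, which was 156 to 178 CPM with vehicle and 64 to 70.8 CPM with FGF6 at 24 h. At that time 4 of the 5 were lower and 1 higher. Adipoq, Plin1, Cidec, and Fabp4 had log2 fold changes of -7.17, -7.65, -4.64, and -1.26. Adipoq and Plin1 were at 0 in all FGF6 libraries at 24 h. Ucp1, the 1 higher, had 17, 19, and 25 counts in the FGF6 libraries at 24 h and 0 in all others. The 5 smooth muscle markers summed to 58.3 to 59.7 CPM with vehicle and 91.7 to 94.7 CPM with FGF6 at 24 h. Smtn carried this rise. The other 4 (Myh11, Lmod1, Myocd, and Des) were lower with FGF6 than with vehicle at 24 h, though Des was not called without Veh 24 h replicate 3 (-0.64, adjusted p = 0.14). The 5 skeletal muscle markers summed to 6.66 to 8.66 and 1.25 to 1.76 CPM, the 4 endothelial ones to 0.965 to 1.3 and 3.71 to 5.65 CPM, and the 4 macrophage ones to 6.39 to 7.92 and 3.32 to 3.97 CPM. Cdh5 carried the endothelial rise, with means of 0.058 and 3.59 CPM. Kdr was not called (0.39, adjusted p = 0.281), and Pecam1 and Tek did not pass the filter. Myf5 was at 0 in every group. The stromal, smooth muscle, and skeletal sums moved together with the contractile genes or against them, and their part in those changes was not tested.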

How the data were processed

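The 18 RNA libraries came from 1 brown preadipocyte line, in the 6 groups given by the labels. The authors aligned reads to GRCm38.p4 with STAR, counted them per GENCODE gene with featureCounts of Subread, and deposited raw counts without normalization. Versions, annotation release, strand setting, and the treatment of multi-mapping reads are not given in the sources used here.

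From these counts, edgeR 4.0.16 (R 4.3.3) kept 15071 of 48023 genes with filterByExpr, computed TMM factors (0.951 to 1.05), and fitted 6 group means to all 18 libraries by the quasi-likelihood method, without covariates. P-values were adjusted by Benjamini-Hochberg, with a threshold of 0.05, while the study used 0.25. The SE is implied by the F statistic, and 95% intervals used the residual degrees of freedom. Per kilobase values used merged exon lengths of GENCODE M21, which held 98.5% of the identifiers. Library totals were 24327816 to 33471980, and exact permutation of 3 against 3 cannot go below p = 0.1. Same-numbered libraries correlated by -0.028 to 0.049 in their deviations from group means, so the numbers were not taken as pairs.

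The 10 genes, the lists, and the markers were chosen with earlier results of these data known. Named were the 10 genes, all 6 SRF partners, and, per other list and time, up to 3 increases and 3 decreases of largest size among called genes without overlap and with at least 1 CPM. The markers, the remaining immediate early genes, Actg1, Actb, Cnn2, and Csrp1 were named after their values were seen. The alternatives were limma 3.58.1 with voom, DESeq2 1.42.0, library size alone, upper-quartile factors, no filter, a minimum of 10 counts throughout, a fit to the compared times alone, a replicate block, an FDR under 0.25, at least 2-fold, and leaving out each library, with Veh 24 h replicate 3 left out at every time after the data were seen. Results on 1 further list are not reported here.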

Additional observations from a re-analysis of the deposited data

Results flagged for a closer look

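The effect of FGF6 differed between times, by the interaction test of edgeR (adjusted p under 0.05), in 28 of 30 tests on the 10 genes. Of all genes tested, 30.6% differed from 4 h to 8 h, 45.1% from 8 h to 24 h, and 53.5% from 4 h to 24 h. From 4 h to 8 h, the difference of the log2 fold changes was 0.34 for Srf (adjusted p = 0.00476), -0.57 for Acta2, -0.92 for Actg2 (adjusted p = 0.0135), -0.50 for Tagln, -0.84 for Cnn1, -1.08 for Myl9, -0.27 for Tpm1, -0.24 for Tpm2, and -0.47 for Vcl. From 8 h to 24 h, it was 0.27 for Srf (adjusted p = 0.0153), 0.28 for Flna, -1.60 for Acta2, -1.48 for Actg2 (adjusted p = 0.0104), -1.30 for Tagln, -1.22 for Cnn1, -1.14 for Myl9, -0.37 for Tpm1, and -0.58 for Tpm2. From 4 h to 24 h, it was 0.61 for Srf, 0.29 for Flna, -2.17 for Acta2, -2.40 for Actg2, -1.80 for Tagln, -2.06 for Cnn1, -2.22 for Myl9, -0.64 for Tpm1, -0.83 for Tpm2, and -0.47 for Vcl. The largest adjusted p of the 28 was 0.0153, that of Srf from 8 h to 24 h, which was 0.0558 without Veh 24 h replicate 3. Srf and Flna were the 2 genes whose differences were positive. The contrasts share libraries and are not independent of each other.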

How the results depend on the processing

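Under the alternatives other than the 2-fold requirement, the decreases of Srf, Acta2, Myl9, Tpm1, and Vcl at 4 h, of 8 genes at 8 h and at 24 h, and the increases of Srf and Flna at 24 h kept their direction and their call, except that Actg2 was left out by the minimum of 10 counts, with 7 genes lower at 8 h and 7 at 24 h. With at least 2-fold, the numbers were 1 lower at 4 h, 4 lower at 8 h, 5 lower and 0 higher at 24 h, 1, 5, and 5 genes with a different effect (8 h against 4 h, 24 h against 8 h, and 24 h against 4 h), and 0 and 3 changed in vehicle cells (4 h to 8 h, and 8 h to 24 h). At 4 h, 1 gene was higher, in place of 0, with DESeq2, with at least 10 counts in every library, with only the libraries of that time, and with an FDR under 0.25. That gene was Tpm2, whose sign turned with library size alone (-0.048) and upper-quartile factors (-0.004). With an FDR under 0.25, Cnn1 was also called lower at 4 h (-0.18, adjusted p = 0.142). The sign of Tagln at 4 h was positive with DESeq2 (0.013), at least 10 counts (0.017), and only the libraries of that time (0.026), that of Flna at 4 h likewise (0.012, 0.016, and 0.025), and that of Flna at 8 h with these (0.036, 0.017, and 0.032) and with no filter (0.007). Srf at 8 h was -0.017 with library size alone. The causes were not tested. Leaving out 1 library of the compared times, or Veh 24 h replicate 3 at any time, a choice made after seeing the data, gave 0 to 1 genes higher and 5 to 6 lower at 4 h, 8 lower at 8 h, 2 higher and 8 lower at 24 h, 8 to 9, 8 to 9, and 10 with a different effect, and 6 to 9 and 8 to 9 changed in vehicle cells, and log2 fold changes of -0.038 to 0.024 for Tagln and -0.026 to 0.016 for Flna at 4 h and -0.025 to 0.041 for Flna at 8 h. Without FGF6 4 h replicate 2, Tpm2 was called higher (as without Veh 24 h replicate 3) and Actg2 was not called at 4 h (-0.40, adjusted p = 0.109), and Actg2 at 24 h ranged from -3.92 to -2.60. A replicate block changed none of the counts (6 lower at 4 h, 8 at 8 h, and 8 at 24 h), and same-numbered libraries did not deviate together (-0.028 to 0.049). Depth limits Actg2 and Cnn1, with 21 and 74 counts in the FGF6 libraries at 24 h.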

Other observations

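Among the other actin cytoskeleton genes, Cnn2, a calponin of non-muscle cells, was lower with FGF6. It was at 519.9 ± 3.17 CPM in vehicle cells and 164.5 ± 5.73 CPM in FGF6 cells at 24 h (SD, n = 3). Its log2 fold changes were -0.93 (SE 0.0339, adjusted p = 7.35e-18) at 4 h, -1.47 at 8 h, and -1.66 (SE 0.0349, adjusted p = 2.79e-23) at 24 h. Csrp1, a LIM protein of the actin cytoskeleton, had log2 fold changes of -0.54, -1.39, and -1.48 (SE 0.0455, adjusted p = 8.05e-20). Of the cytoplasmic actins, Actb was lower at 4 h with -0.19 (adjusted p = 1.41e-06), stood at -0.03 at 8 h, and was higher at 24 h by 0.28 (adjusted p = 1.13e-09). Actg1, whose protein is as a rule abundant, had 7.38 ± 0.352 CPM in vehicle cells at 4 h, where Actb had 2395 ± 64.6 CPM. Actg1 has many near-identical copies in the genome and the handling of reads that match several places is not given in the sources used here, so its level is uncertain.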
